A study of Mus musculus and Acomys cahirinus with 16 samples.

Results

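The cyclooxygenases and lipoxygenases, with the enzymes that make and break down prostaglandin E2, were followed through untreated and carcinogen-treated skin of the laboratory mouse and the African spiny mouse. The 10 genes are Ptgs1, Ptgs2, Ptges, Hpgd, Alox5, Alox8, Alox12, Alox12b, Aloxe3 and Alox15, chosen by symbol. All 10 were found among the 56980 genes of the mouse table, and 9 among the 19818 of the spiny mouse table, where Alox12 is not listed under that symbol and was not analysed here. The list was put together with earlier results of these data known, and which values guided the choice is not recorded. Counts over the 10 genes are therefore descriptions, and adjusted p-values come from fits of every gene in a table.

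Arachidonic acid is a fatty acid that phospholipases release from cell membranes. Cyclooxygenases turn it into prostaglandin H2, from which further synthases make the prostaglandins and thromboxane, and lipoxygenases add oxygen to it to give leukotrienes, lipoxins and hydroxy fatty acids. In skin, prostaglandin E2 made after phorbol ester or wounding is known for its part in inflammation and in the growth of keratinocytes. A pair of epidermal lipoxygenases, encoded by Alox12b and Aloxe3, oxidises the linoleate of acylceramides and is needed for the water barrier.

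Polyadenylated RNA of skin was sequenced in 16 samples. The 4 groups were untreated mouse (Mus musculus), DMBA/TPA-treated mouse, untreated spiny mouse (Acomys cahirinus) and DMBA/TPA-treated spiny mouse, with 4 samples in each. DMBA, or dimethylbenzanthracene, is a mutagen used to start skin tumours. TPA, a phorbol ester, activates protein kinase C and drives the growth of the mutated clones. The labels give no genotype, strain, age, sex, dose or duration, and do not say that samples came from separate animals, so the p-values measure the spread between these samples. Text filed with the series speaks of irradiated fibroblasts, but the sample labels name skin and were followed.

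Fragment totals ran from 19608787 to 30198281 in mouse samples and from 21143918 to 30561256 in spiny mouse samples. Levels are CPM, that is counts per library total after scaling by trimmed-mean factors (TMM), given as mean ± SD over 4 samples, and 3 counts, the smallest signal taken as detected, correspond to 0.102 to 0.158 CPM. Genes with an adjusted p under 0.05 in edgeR's quasi-likelihood test were called, and the error of a log2 fold change is given as its SE. Each species' table was scaled on its own gene models, so levels were not compared between species, and the responses were compared as the species by treatment interaction, written as the log2 fold change of spiny mouse minus that of mouse. With TMM factors 42.4% of mouse calls were higher in treated skin, against 30.5% under upper-quartile scaling and 28.6% when only library size was used. For the interaction 46.4% of calls were positive with TMM factors, against 61.2% and 66.2%. The direction of every member's fold change was the same under each of these scalings. Untreated mouse replicate 2 stood apart from the other 3 untreated mouse samples, with 1687 CPM of 7 growing hair follicle genes summed, against 6.31 to 29.6 CPM, and each mouse call of a member that changed without it is given both ways. Skeletal muscle genes were lower in treated skin of both species, from 7410 to 9433 CPM down to 1718 to 2238 CPM in mouse, and from 9332 to 11993 CPM down to 3121 to 6433 CPM in spiny mouse. All results are from whole skin, in which fewer cells of a type and less RNA per cell cannot be told apart.

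Treated mouse skin had higher Ptges and Alox8 and lower Ptgs1, Alox5 and Aloxe3, so that 5 of the 10 tested members were called (2 higher, 3 lower), and the groups of 5 did not overlap, against 58.6% of all mouse genes. Of the 19740 genes in the mouse fit, 61.2% passed, 25.9% higher and 35.3% lower. In spiny mouse, the 8 members tested were all called: Ptgs1, Ptgs2, Ptges and Hpgd were higher and Alox5, Alox8, Alox12b and Aloxe3 lower. There 55.1% of 14833 genes passed, 28.2% higher and 26.9% lower. The groups of 4 members did not overlap, against 50.9% of all spiny mouse genes. In spiny mouse the calls split by enzyme class, prostaglandin genes higher and lipoxygenases lower. All 4 lipoxygenase calls were lost when certain single libraries were left out, as described under each gene. The responses of the species differed for 6 of the 8 members tested in both, where 46.1% of 13656 shared genes passed. The response was larger in spiny mouse for 4 (21.4% of all shared genes) and smaller for 2 (24.7%). The median log2 fold change of the members was 0.32 in mouse and 0.03 in spiny mouse, and that of all genes tested was -0.15 and -0.01.

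**Figure D1:**
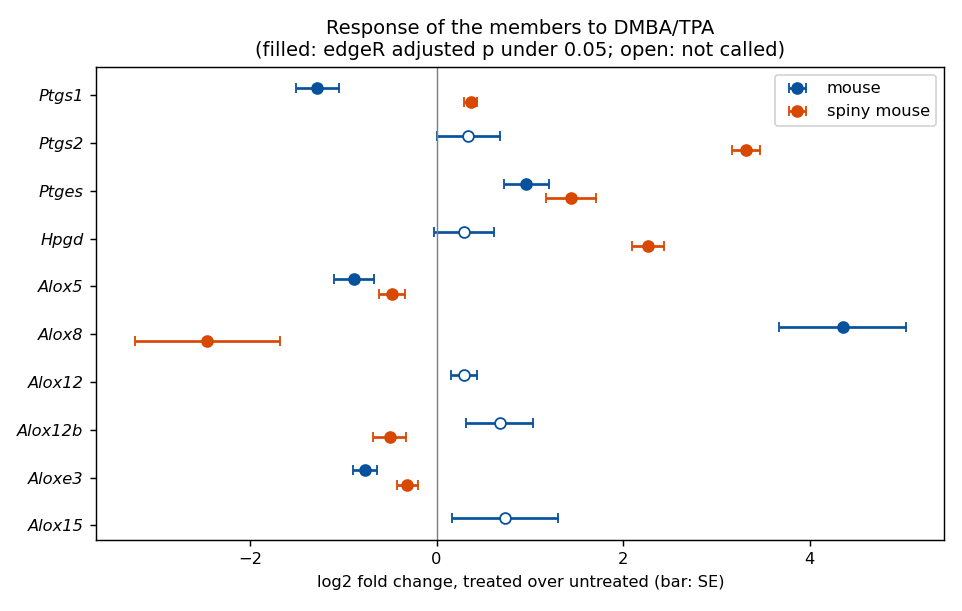
Log2 fold change of each member, DMBA/TPA over untreated skin, with its SE as a bar, for mouse (blue) and spiny mouse (orange). Filled points passed an edgeR adjusted p of 0.05 and open points did not. The orange points of Ptgs2 (3.32) and Hpgd (2.26) lie far to the right of the blue ones, and Alox8 lies at 4.35 in mouse and -2.46 in spiny mouse.

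Ptgs2 encodes the inducible cyclooxygenase, an early response gene of phorbol ester treated cells. In the mouse it lies on the plus strand at chr1:149975782-149983978 (GRCm39), and in the spiny mouse on scaffold_5 from 42500650 to 42508988 (AcoCah2). In spiny mouse its level was 9.53, 9.20, 13.3 and 11.2 CPM in the untreated samples and 104, 117, 87.9 and 122 CPM in the treated ones. Every treated sample was several times above every untreated one, and the mean went from 10.8 ± 1.87 to 108 ± 15.1 CPM. The log2 fold change was 3.32 (SE 0.15, edgeR adjusted p 3.54e-06), a rise of 9.97-fold. In mouse the untreated samples had 7.33, 2.63, 7.36 and 8.56 CPM and the treated ones 7.14, 7.60, 6.44 and 11.6 CPM. These mouse groups overlapped, and 0.34 on the log2 scale (SE 0.34, edgeR adjusted p 0.400) did not pass. The responses differed by 2.97 (SE 0.38, edgeR adjusted p 2.06e-05).

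The promoter of mouse Ptgs2 is shown because this gene had the largest response among the 4 prostaglandin members in spiny mouse, although the mouse gene itself was not called. The window, from RefSeq (table build GRCm38.p6), reaches from 250 bases before the transcript start to 50 bases after it and matches GRCm39 once, at chr1:149975532-149975831 on the plus strand. It is read 5′ to 3′ along the gene, and capitals mark the CACGTG E-box.
Ptgs2: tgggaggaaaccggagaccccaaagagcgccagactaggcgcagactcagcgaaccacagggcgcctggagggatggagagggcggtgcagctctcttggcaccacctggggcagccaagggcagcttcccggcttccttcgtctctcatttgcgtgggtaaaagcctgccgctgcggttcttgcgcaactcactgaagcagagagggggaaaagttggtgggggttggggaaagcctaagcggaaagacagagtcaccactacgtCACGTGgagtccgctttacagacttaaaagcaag
The 3 motifs searched are palindromes, each the same on both strands: TGANTCA (AP-1, the TPA response element), TGACGTCA (the cAMP response element) and CACGTG. Counted from the annotated transcript start, the E-box of Ptgs2 lay downstream, at bases 267 to 272 of the 300. It overlapped no exact match of either other motif, and partial matches were not searched. CACGTG was found in 7.15% of all 32851 promoters of that length. No other member with a table entry held it, 8 of the 10 having one. The letters TGANTCA occurred in 7.81% and TGACGTCA in 1.79% of all promoters, and in 0 of the 8 members' windows. No spiny mouse promoter was examined.

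Ptgs1, the constitutive cyclooxygenase, fell in mouse and rose in spiny mouse. It lies at chr2:36120438-36142284 on the plus strand in mouse and on scaffold_10, 46679526 to 46715912, in spiny mouse. Its mouse level was 145.6, 73.3, 118.1 and 161.7 CPM untreated and 64.9, 48.3, 48.0 and 44.6 CPM treated. The lowest untreated value, that of replicate 2, was still above the highest treated one. Ptgs1 fell from 125 ± 38.7 to 51.5 ± 9.12 CPM in mouse, which is -1.28 on the log2 scale (SE 0.23, edgeR adjusted p 0.00148). In spiny mouse it had 46.9, 46.3, 51.2 and 49.7 CPM untreated and 68.0, 61.6, 62.8 and 57.8 CPM treated, groups that did not overlap. That rise, from 48.5 ± 2.31 to 62.5 ± 4.20 CPM, was small yet beyond the spread between samples, at 0.37 on the log2 scale (SE 0.069, edgeR adjusted p 0.00179). The opposite responses of Ptgs1 differed by 1.64 (SE 0.26, edgeR adjusted p 0.000116). In mouse, 148 of its 3884 exon bases are shared with the antisense gene Gm43621. The counting used no strand, so fragments that fell equally to both genes were not counted.

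The balance of the cyclooxygenases within each sample was taken as the ratio of Ptgs2 to Ptgs1, each in CPM per kilobase of its gene. In spiny mouse the ratio was 0.221 to 0.289 in untreated and 1.56 to 2.35 in treated samples, so that Ptgs2 exceeded Ptgs1 in all 4 treated samples and in no untreated one. In mouse it was 0.0304 to 0.0529 untreated and 0.0933 to 0.221 treated. Both species' ratios were higher in every treated sample, with a lower Ptgs1 in mouse and a higher Ptgs2 in spiny mouse.

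Ptges encodes the inducible, membrane-bound synthase that turns prostaglandin H2 into prostaglandin E2, and it was higher in treated skin of both species. It lies at chr2:30779483-30819875 on the minus strand in mouse and on scaffold_10, 52239499 to 52253032, in spiny mouse. Mouse samples had 52.9, 26.1, 48.4 and 57.0 CPM untreated and 118, 81.7, 89.8 and 70.5 CPM treated. Spiny mouse samples had 8.37, 10.5, 8.95 and 8.27 CPM untreated and 20.1, 22.9, 15.04 and 39.8 CPM treated. Neither species' groups overlapped, and treated replicate 4 was the highest of the spiny mouse. The log2 fold change was 0.96 (SE 0.24, edgeR adjusted p 0.00763) in mouse and 1.44 (SE 0.27, edgeR adjusted p 0.00167) in spiny mouse. A difference between these responses was not detected (0.48, SE 0.38, edgeR adjusted p 0.327).

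Hpgd encodes the dehydrogenase that inactivates prostaglandins, and it rose in spiny mouse beside Ptgs2. Its positions are chr8:56747620-56774078 on the plus strand in mouse and scaffold_13, 74146400 to 74177458, in spiny mouse. Untreated spiny mouse samples had 41.5, 31.2, 39.5 and 30.2 CPM and treated ones 211, 185, 125 and 163 CPM. All treated samples were above all untreated ones, and the log2 fold change was 2.26 (SE 0.17, edgeR adjusted p 2.02e-05), or 4.80-fold. Mouse samples had 34.2, 13.9, 49.5 and 32.9 CPM untreated and 42.5, 42.9, 45.5 and 29.2 CPM treated. These overlapped, at 0.29 on the log2 scale (SE 0.32, edgeR adjusted p 0.443). The species difference of Hpgd was 1.97 (SE 0.39, edgeR adjusted p 0.000776). Per kilobase, Ptgs2 stood at 0.0895 to 0.145 of Hpgd in untreated and 0.193 to 0.292 in treated spiny mouse samples, so Hpgd was the higher of the pair throughout.

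Markers of blood cells and of basal epidermis were read beside these genes. The summed level of 6 neutrophil markers, of which S100a8 and S100a9 are also made by keratinocytes, went from 9.03 to 37.6 CPM up to 844 to 1749 CPM in mouse and from 88.8 to 131 CPM up to 2243 to 2588 CPM in spiny mouse, with 5 of 5 and 5 of 6 tested markers higher. The 6 macrophage markers summed to 346 to 795 CPM in untreated and 377 to 517 CPM in treated mouse skin, ranges that overlapped. Of these markers 0 were higher and 2 lower in mouse, or 0 to 3 lower when each library was left out. In spiny mouse they summed to 420 to 467 CPM untreated and 853 to 1448 CPM treated, with 4 of 6 higher, or 3 to 5 when each library was left out. The 6 basal epidermis markers summed to 6184 to 9035 CPM untreated and 14079 to 18793 CPM treated in mouse, where Krt5 and Krt14 were higher, Col17a1 was lower and 3 were not called. In spiny mouse they summed to 7768 to 9060 CPM and 16818 to 21159 CPM, with 5 of 6 higher. No marker of these lists was at 0 over a whole group, and their part in the changes of Ptgs1, Ptgs2, Ptges and Hpgd was not tested.

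**Figure D2:**
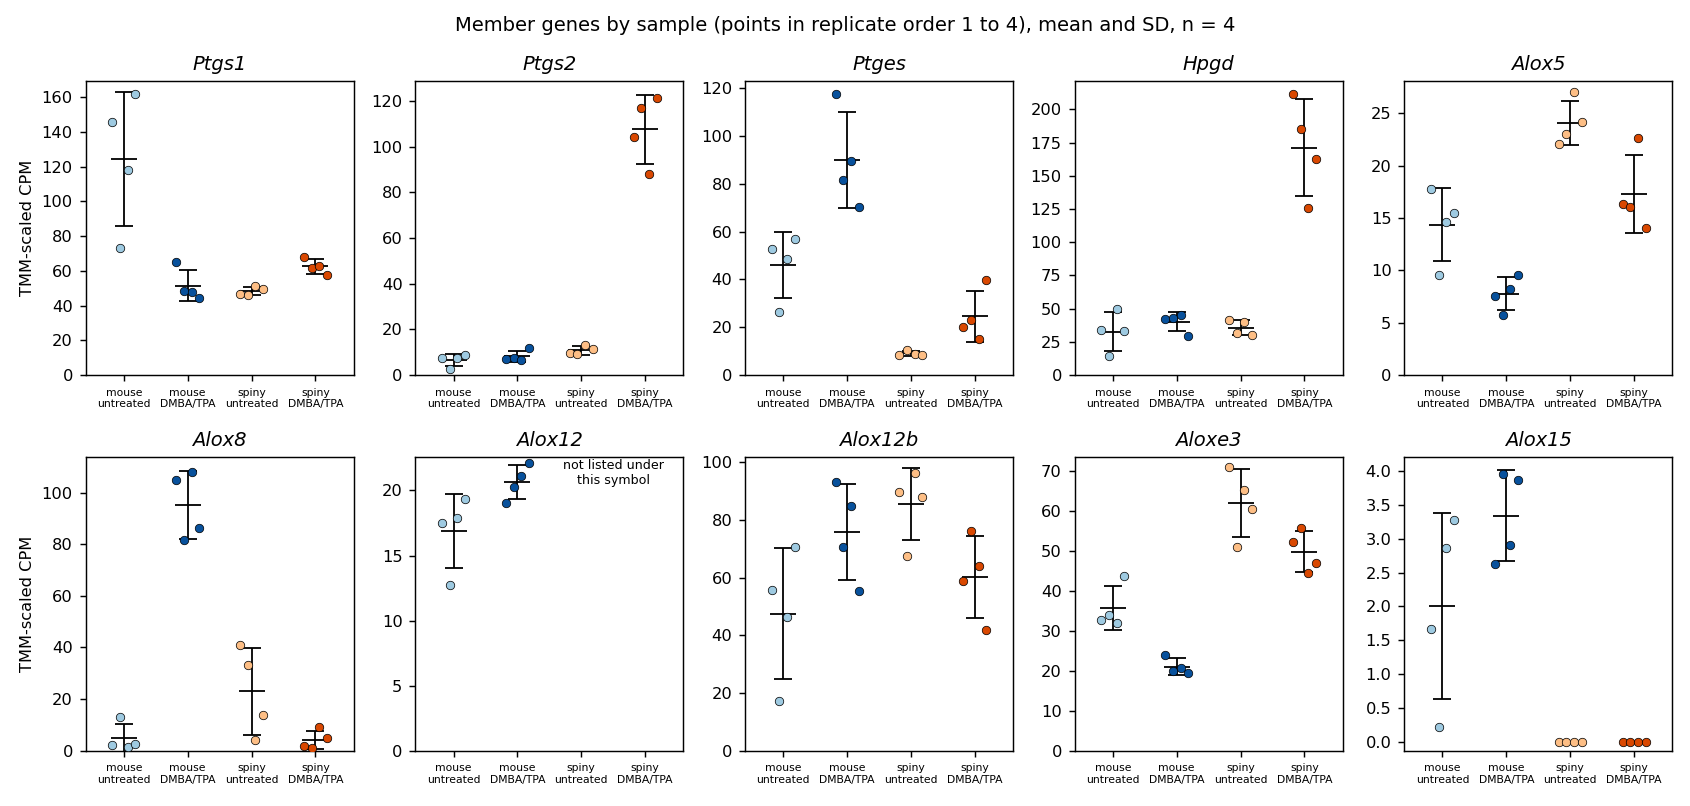
TMM-scaled CPM (vertical axis, from 0, a different scale in each panel) of the 10 members in untreated and DMBA/TPA-treated mouse and spiny mouse skin. Points are samples in replicate order, the long tick is the mean and the bars are the SD over 4 samples, with the lower bar of Alox8 in untreated mouse ending below the axis. The treated spiny mouse samples stand alone in Ptgs2 (87.9 to 122 CPM) and Hpgd (125 to 211 CPM), and the treated mouse samples in Alox8 (81.8 to 108 CPM).

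Alox5 encodes the lipoxygenase that starts leukotriene synthesis and works with the activating protein of Alox5ap. It lies at chr6:116387038-116438139 on the minus strand in mouse and on scaffold_4, 28607276 to 28664029, in spiny mouse. Mouse samples had 17.8, 9.56, 14.6 and 15.5 CPM untreated and 7.51, 5.76, 8.22 and 9.54 CPM treated, the lowest untreated value lying just above the highest treated one. The fall was -0.89 on the log2 scale (SE 0.22, edgeR adjusted p 0.00644). In spiny mouse 22.1, 23.0, 27.0 and 24.2 CPM stood against 16.4, 16.01, 22.7 and 14.1 CPM, and treated replicate 3 lay within the untreated range. The spiny mouse change of -0.48 (SE 0.14, edgeR adjusted p 0.0188) lost its call without treated replicate 2 (adjusted p 0.0544) or treated replicate 4 (0.0517). A difference between the species was not detected (0.41, SE 0.27, edgeR adjusted p 0.226). Mast cells are among the blood cells known to make leukotrienes, and 6 mast cell markers summed to 75.3 to 132 CPM in untreated and 85.5 to 102 CPM in treated mouse skin. Of these markers 1, Kit, was higher in mouse and 0 lower, or 0 to 3 lower when each library was left out. In spiny mouse the markers summed to 120 to 158 CPM and 118 to 170 CPM. There Cma1 and Ms4a2 were higher and Kit lower, or 1 to 2 higher and 0 to 2 lower when each library was left out. Their part in the change of Alox5 was not tested. Mcpt4 stood at 0 in spiny mouse. All 955 exon bases of the spiny mouse Mcpt4 also belong to Mcpt1 and Mcpt2 on the same strand, where fragments were not counted, so that 0 says nothing of its transcript.

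Alox8, the mouse lipoxygenase known to be inducible by phorbol ester in skin, gave the largest and the most opposed responses of the family. It lies at chr11:69074758-69088669 on the minus strand in mouse and on scaffold_14, 98370742 to 98381705, in spiny mouse. Untreated mouse samples had 1.99, 13.1, 1.25 and 2.46 CPM and treated ones 105, 81.8, 108 and 86.4 CPM. Replicate 2 was the high untreated sample, yet far below all treated ones. The rise, from 4.69 ± 5.61 to 95.3 ± 13.1 CPM, was 4.35 on the log2 scale (SE 0.68, edgeR adjusted p 0.000614), or 20.4-fold, and 5.76 without untreated replicate 2 (edgeR adjusted p 1.06e-09). Spiny mouse samples had 40.9, 33.0, 4.22 and 13.9 CPM untreated and 1.68, 1.11, 8.97 and 4.93 CPM treated. These groups overlapped, since untreated replicate 3 was below 2 treated samples. The spiny mouse change of -2.46 (SE 0.78, edgeR adjusted p 0.0234) was not called without untreated replicate 1 (adjusted p 0.0614), untreated replicate 2 (0.0558), treated replicate 1 (0.0598) or treated replicate 2 (0.0509). The difference between the species, -6.81 (SE 1.11, edgeR adjusted p 0.000167), was called in all 16 fits that left out 1 library, from -8.21 without untreated mouse replicate 2 to -6.38.

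The mouse Alox8 promoter window is shown since this gene rose most among the members. It comes from RefSeq (table build GRCm38.p6) and matches GRCm39 once, at chr11:69088620-69088919 on the minus strand, and it holds none of the 3 motifs searched, so it has no capitals.
Alox8: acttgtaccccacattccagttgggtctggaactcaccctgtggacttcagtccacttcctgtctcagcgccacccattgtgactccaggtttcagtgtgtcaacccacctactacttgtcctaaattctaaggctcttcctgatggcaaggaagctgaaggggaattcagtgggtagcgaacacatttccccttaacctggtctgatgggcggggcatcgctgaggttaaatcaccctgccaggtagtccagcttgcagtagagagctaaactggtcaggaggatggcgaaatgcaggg

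Genes of the growing hair follicle stood high in the groups and in most samples where Alox8 was high. The 7 follicle markers summed to 6.31, 1687, 29.6 and 6.92 CPM in untreated mouse samples and 17788, 18639, 17748 and 19143 CPM in treated ones. In the mouse 7 of 7 were higher, which became 3 to 7 when each library was left out, and DESeq2 gave none of the 7 an adjusted p. In spiny mouse they summed to 7454, 8822, 854 and 2651 CPM untreated and 187, 160, 2502 and 930 CPM treated, with 2 of 7 lower and 5 not called, or 0 to 7 lower when each library was left out. The sample with the highest untreated mouse Alox8 was also the one with the highest untreated follicle sum, and spiny mouse samples of either group fell in nearly the same order by both measures. Within the treated mouse samples, whose follicle sums spanned only 17748 to 19143 CPM, the order was nearly the opposite. Untreated mouse replicate 3, with the second follicle sum of its group, had the lowest Alox8. The gene most like Alox8 over the 16 samples, after subtraction of each species' own mean, was Msx2 (Pearson r 0.993), itself one of the 7 markers, followed by Samd5 (0.991) and Hoxc13 (0.990), out of 9776 genes. These correlations are descriptions over samples that share libraries and treatment groups. The part of the hair follicle in the Alox8 result was not tested.

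**Figure D3:**
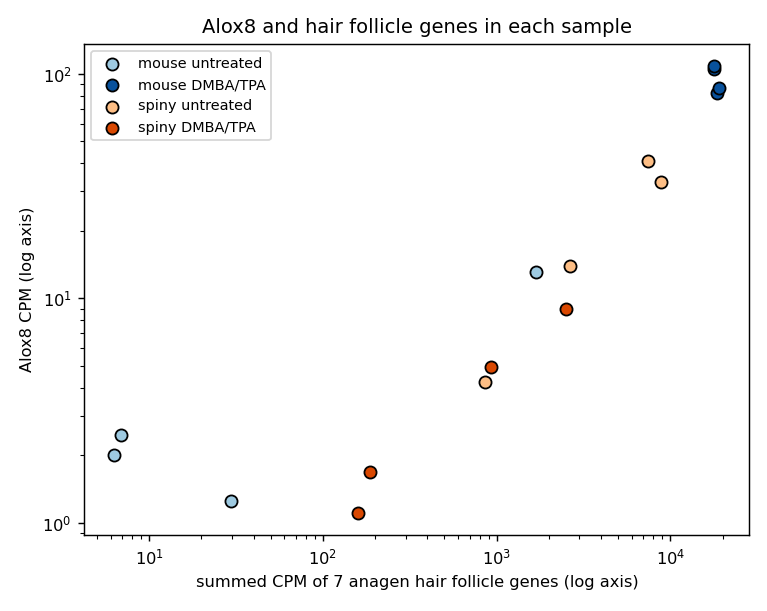
Alox8 level (CPM, log axis) against the summed level of 7 growing hair follicle genes (CPM, log axis), 1 point for each of the 16 samples, coloured by group. The treated mouse samples lie at the upper right (81.8 to 108 CPM of Alox8), and the untreated mouse sample with 13.1 CPM of Alox8 is the one with 1687 CPM of follicle genes.

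Alox12b and Aloxe3 act in sequence on acylceramides, Alox12b first, and lie close to Alox8 in both species. In mouse they are at chr11:69047815-69060618 and chr11:69016722-69039941, both on the plus strand, and in spiny mouse on scaffold_14, from 98348164 to 98361702 and from 98310063 to 98339403. Aloxe3 was 32.7, 34.1, 31.9 and 43.8 CPM in untreated and 24.0, 19.9, 20.7 and 19.4 CPM in treated mouse skin, groups that did not overlap. It fell by 0.76 on the log2 scale in mouse (SE 0.13, edgeR adjusted p 0.000933). Spiny mouse Aloxe3 was 71.0, 50.9, 65.3 and 60.4 CPM untreated and 52.3, 55.7, 44.4 and 46.9 CPM treated. The groups overlapped, and the change of -0.31 (SE 0.11, edgeR adjusted p 0.0392) kept its call in 2 of the 8 fits without 1 library, those without untreated or treated replicate 2, with adjusted p of up to 0.107 in the others.

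Alox12b had 55.8, 17.1, 46.3 and 70.7 CPM in untreated and 93.2, 70.8, 84.7 and 55.2 CPM in treated mouse skin. The overlap was by treated replicate 4, and the difference of 0.68 on the log2 scale (SE 0.36, edgeR adjusted p 0.130) did not pass, while without untreated replicate 2 it was 0.49 (edgeR adjusted p 0.0304) and with DESeq2 0.79 (DESeq2 adjusted p 0.0416). Spiny mouse Alox12b had 89.7, 67.6, 96.4 and 88.1 CPM untreated and 58.9, 76.3, 64.0 and 41.8 CPM treated, so that treated replicate 2 lay within the untreated range. Its change of -0.50 (SE 0.17, edgeR adjusted p 0.0345) was also called only in the 2 of 8 fits without untreated or treated replicate 2, with adjusted p of up to 0.0814 in the others. The species differed by -1.18 for Alox12b (SE 0.43, edgeR adjusted p 0.0358), called in 9 of 16 fits without 1 library. That call was also lost when only library size was used for scaling (-0.98, edgeR adjusted p 0.0599). For Aloxe3 the species differed by 0.45 (SE 0.17, edgeR adjusted p 0.0447), called in 6 of 16 and not without untreated mouse replicate 2 (0.38, adjusted p 0.0862). This Aloxe3 call was also lost with DESeq2 (0.35, DESeq2 adjusted p 0.124), with its size factors in edgeR (0.35, edgeR adjusted p 0.125) and with no filter on low counts (0.32, edgeR adjusted p 0.163).

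Per kilobase, Alox12b stood 1.32 to 4.48 times as high as Aloxe3 in untreated and 7.496 to 10.8 times as high in treated mouse samples, ranges that did not overlap. The size of this ratio rests on the annotated exon lengths, 2431 bases for Alox12b and 6397 for Aloxe3 in mouse. In spiny mouse the ratio was 2.89 to 3.38 untreated and 2.04 to 3.30 treated, which overlapped. Suprabasal epidermis markers, from the layers where both enzymes are made, summed to 3009 to 7816 CPM untreated and 8748 to 13637 CPM treated in mouse, with 3 of 5 tested higher. In spiny mouse they summed to 7158 to 10754 CPM and 10179 to 16149 CPM, with 3 of 6 higher and Lor lower. Lor was not found under that symbol in mouse, so the mouse sum leaves it out. The part of these markers in the changes of Alox12b and Aloxe3 was not tested. The 3 genes most like Alox12b across the 16 samples were Klk5 (Pearson r 0.955), Klf4 (0.948) and Elovl1 (0.946) of 9775 genes.

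Alox12, the platelet-type lipoxygenase, which keratinocytes also make, could be followed in the mouse alone, at chr11:70132283-70146179 on the minus strand. It had 17.5, 12.8, 17.9 and 19.3 CPM untreated and 19.0, 20.3, 21.1 and 22.1 CPM treated, and untreated replicate 4 lay within the treated range. This difference of 0.29 on the log2 scale (SE 0.14, edgeR adjusted p 0.0920) did not pass, and passed without untreated replicate 2 (0.27, edgeR adjusted p 0.02003), without untreated replicate 3 (0.38, 0.0463), and with DESeq2 (0.39, DESeq2 adjusted p 0.0113). Platelet and megakaryocyte markers summed to 21.1 to 52.1 CPM untreated and 25.9 to 34.2 CPM treated.

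Alox15, which in other tissues is a macrophage and eosinophil lipoxygenase, had the lowest mean level of the members in mouse. It lies at chr11:70234978-70242857 on the minus strand and had 1.67, 0.219, 2.86 and 3.28 CPM untreated and 2.63, 3.96, 2.91 and 3.86 CPM treated. These groups overlapped (log2 fold change 0.73, SE 0.56, edgeR adjusted p 0.283). In spiny mouse the gene has 0 counts in all 8 samples, and this says little about its transcript. Of its 1661 exon bases on scaffold_14 (99472661 to 99487599), 1580 also belong to exons of Alox12e on the same strand. Fragments that fell equally to both genes were not counted. A single exon of 81 bases lies outside, so Alox15 was not tested in spiny mouse.

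Alox12e, the epidermal-type paralogue, is not one of the 10 genes but shares those bases. It fell from 254 ± 70.2 to 79.0 ± 16.9 CPM in mouse (log2 fold change -1.68, SE 0.24, edgeR adjusted p 0.000407). In spiny mouse, counted on what the overlap leaves of its 2450 bases, it fell from 16.1 ± 4.73 to 5.25 ± 2.41 CPM (-1.61, SE 0.32, edgeR adjusted p 0.00235). The responses were not detectably different (0.08, SE 0.42, edgeR adjusted p 0.900).

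The order of the members by level per kilobase changed with treatment in both species. In untreated mouse skin Ptgs1 led at 32.1 ± 9.96 CPM per kilobase, with Alox12b (19.5 ± 9.31), Hpgd (19.4 ± 8.67) and Ptges (11.7 ± 3.50) next, neighbours whose samples overlapped. In treated mouse skin Alox12b (31.3 ± 6.85), Alox8 (26.8 ± 3.69), Hpgd (23.8 ± 4.34) and Ptges (22.9 ± 5.11) came first without separating from each other, and Ptgs1 stood apart below them at 13.2 ± 2.35. By its mean, Alox8 went from the ninth place of 10 to the second. In untreated spiny mouse skin Alox12b (36.2 ± 5.26), Hpgd (20.7 ± 3.34) and then Aloxe3 (11.4 ± 1.57) led, the first 2 separate from what followed, and Ptgs2 was the lowest gene above 0, at 2.45 ± 0.424. In treated spiny mouse skin Hpgd led alone at 99.5 ± 21.2, above Alox12b (25.5 ± 6.06) and Ptgs2 (24.4 ± 3.43), which overlapped, and Alox8 was lowest above 0 at 1.35 ± 1.17.

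Over the 16 samples, the genes most like Ptgs2, out of 9776, were Coch (Pearson r 0.979), Ifnar1, a subunit of the receptor for type I interferons (0.976), and Srgn, which encodes the granule proteoglycan serglycin (0.975). For Hpgd they were Rasa1 (0.963), Aqp9 (0.962) and Rpia (0.961), and for Ptgs1 Pigg (0.976), Kctd12 (0.950) and Marveld2 (0.948), each out of 9775. Those most like Ptges were Alg2 (0.954), Trim8 (0.943) and Gna13 (0.940). For Alox5 they were Tk2 (0.953), Agfg2 (0.949) and Nampt (0.926), and for Aloxe3 Cgn (0.960), Ifnlr1 (0.946) and Pnpla3 (0.934). Each r is over values centred on the species mean and mostly reads how treated samples of each species stood against untreated ones.

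The other genes of the pathway were read from a list of 56 genes in 7 roles. Their counts stand against all genes tested, of which 25.9% were higher and 35.3% lower in mouse, and 28.2% and 26.9% in spiny mouse. Upstream, 4 of 13 tested phospholipases were higher and 2 lower in treated mouse skin, and 4 of 12 higher and 3 lower in spiny mouse. Pla2g4e, of the cytosolic family, rose in both, from 21.7 ± 2.73 to 168 ± 33.2 CPM in mouse (2.96, SE 0.17, edgeR adjusted p 4.54e-06) and from 47.7 ± 12.9 to 218 ± 28.1 CPM in spiny mouse (2.19, SE 0.19, edgeR adjusted p 3.22e-05). Pla2g4f rose by 0.88 in mouse and 2.89 in spiny mouse. Pla2g4a, the classic supplier of arachidonate to cyclooxygenases, rose in spiny mouse from 43.1 ± 5.30 to 68.9 ± 7.49 CPM (0.68, SE 0.11, edgeR adjusted p 0.000700), with 36.0 ± 7.91 and 31.1 ± 3.73 CPM in mouse (-0.21, edgeR adjusted p 0.303). Pla2g4d rose in mouse by 4.11 and was 18.4 ± 4.27 and 15.8 ± 4.60 CPM in spiny mouse. Pla2g2e, a secreted phospholipase, rose in mouse from 4.06 ± 1.03 to 36.1 ± 1.61 CPM. The 4 higher phospholipases of the mouse became 8 without untreated replicate 2 and 7 with DESeq2.

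Among 8 other prostanoid synthases, 2 were higher and 3 lower in mouse, and 2 higher and 2 lower in spiny mouse. For all genes the shares were 25.9% and 35.3% in mouse, and 28.2% and 26.9% in spiny mouse. The mouse falls were those of Hpgds, the blood cell synthase of prostaglandin D2 (-1.86, SE 0.17, edgeR adjusted p 4.06e-05), Tbxas1, the thromboxane synthase (-1.23, SE 0.28, edgeR adjusted p 0.00436), and Ptgis, the prostacyclin synthase (-2.35, SE 0.54, edgeR adjusted p 0.00467). Ptgds, the lipocalin-type synthase of prostaglandin D2, rose in mouse from 3.18 ± 1.55 to 16.4 ± 1.15 CPM. In spiny mouse Hpgds (0.31), Tbxas1 (0.38) and Ptgds (-1.08) did not pass, and Ptgis was lower by a log2 fold change of -0.94, called in 3 of 8 fits without 1 library. The species difference was called for Hpgds (2.17), Tbxas1 (1.60) and Ptgds (-3.46), that is 2 positive and 1 negative. Of all shared genes, 21.4% were called positive and 24.7% negative. The synthase counts became 4 and 3 without untreated mouse replicate 2, 2 and 4 without untreated mouse replicate 3, and 2 and 3 with DESeq2.

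Of the receptors for prostanoids, 1 of 7 tested was higher and 4 were lower in treated mouse skin, where 35.3% of all genes were lower, with 3 to 4 lower when each library was left out. In spiny mouse 6 of 9 were higher and 1 lower, where 28.2% of all genes were higher, with 5 to 6 higher when each library was left out. The 9 include Ptger1 and Ptgdr2, which were not tested in mouse, and Ptgdr2 is among the 6 higher. Ptger2, a prostaglandin E2 receptor that raises cyclic AMP, rose in spiny mouse from 3.24 ± 0.273 to 17.0 ± 3.05 CPM (2.39, SE 0.15, edgeR adjusted p 8.84e-06), with 1.46 ± 0.248 and 1.13 ± 0.0796 CPM in mouse (edgeR adjusted p 0.181). Ptgir, the prostacyclin receptor, fell in mouse from 7.14 ± 1.16 to 3.07 ± 0.971 CPM (-1.21) and rose in spiny mouse from 3.96 ± 0.326 to 13.2 ± 3.48 CPM (1.73). Ptgfr, the prostaglandin F2 alpha receptor, changed by -1.32 and 0.69. Ptger4, the other E2 receptor that raises cyclic AMP, was the receptor called higher in both, by 0.36 and 0.62. Ptger3 was lower in mouse (-0.94) and higher in spiny mouse (0.41), calls kept in 1 of 8 and 4 of 8 fits without 1 library. The interaction was positive and called for 5 of 7 receptors, against 21.4% of all shared genes. These were Ptger2 (2.77), Ptger3 (1.36), Ptgdr (2.63), Ptgfr (2.01) and Ptgir (2.94). A negative interaction was called for 0, or for 1 with DESeq2 and without untreated mouse replicate 2 or 3, treated mouse replicate 2 or 3 or untreated spiny mouse replicate 3.

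For transport and breakdown of prostaglandins, 0 of 5 tested genes were higher and 4 lower in mouse, and 1 of 4 higher and 0 lower in spiny mouse. Of all genes, 35.3% were lower in mouse and 28.2% higher in spiny mouse. The 4 lower mouse genes became 1 without treated replicate 2, and 2 with DESeq2 and without untreated replicate 1 or 4 or treated replicate 1, 3 or 4. The spiny mouse rise was that of Ptgr1, which acts after Hpgd in the breakdown, from 43.3 ± 5.19 to 86.6 ± 21.7 CPM (SE of the log2 fold change 0.17, edgeR adjusted p 0.00115). Ptgr1 was 51.3 ± 17.5 and 58.3 ± 3.87 CPM in mouse.

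In the leukotriene and lipoxin branch, 3 of 8 tested genes were higher and 3 lower in mouse, and 7 of 8 higher and 0 lower in spiny mouse, beside the lower Alox5 of both. The genes tested differed: Fpr2 was tested in mouse alone, and Dpep2, among the 7 higher, in spiny mouse alone. Of all genes, 25.9% were higher and 35.3% lower in mouse, and 28.2% higher and 26.9% lower in spiny mouse. Lta4h, the hydrolase that makes leukotriene B4, rose in both, from 43.6 ± 3.13 to 70.7 ± 5.48 CPM in mouse and from 52.5 ± 5.86 to 177 ± 23.0 CPM in spiny mouse, and the rise was larger in spiny mouse by 1.05 (SE 0.15, edgeR adjusted p 4.83e-05). Its high-affinity receptor Ltb4r1 also rose in both (0.92 and 1.37). The cysteinyl leukotriene receptors Cysltr1 and Cysltr2 fell in mouse, by 1.67 and 1.33 on the log2 scale, and rose in spiny mouse, by 0.94 and 1.54. T cell markers moved with them: they summed to 14.95 to 24.7 CPM untreated and 7.12 to 8.07 CPM treated in mouse, with 4 of 5 lower, and to 21.5 to 36.3 CPM and 36.9 to 71.3 CPM in spiny mouse, with 2 of 4 higher and Trac not found. Eosinophil markers summed to 0.395 to 5.53 CPM untreated and 1.93 to 3.03 CPM treated in mouse, with 0 of 2 tested called, and to 2.25 to 4.57 CPM and 11.6 to 27.0 CPM in spiny mouse, with 2 of 2 tested higher. The part of these cells, and of the macrophages above, in the changes of the receptors was not tested. Alox5ap rose in spiny mouse from 23.3 ± 2.64 to 35.9 ± 7.86 CPM (0.62, SE 0.15, edgeR adjusted p 0.00708) and was 10.6 ± 4.96 and 7.39 ± 1.79 CPM in mouse. Ltc4s, the synthase of leukotriene C4, fell in mouse (-1.11) and did not pass in spiny mouse (-0.47).

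In the route that supplies and uses the acylceramides of Alox12b and Aloxe3, 7 of 9 genes were higher in mouse and 5 of 9 in spiny mouse. None was lower in either, and 25.9% of all genes were higher in mouse and 28.2% in spiny mouse. Cers3, the ceramide synthase of that route, rose from 57.6 ± 20.9 to 189 ± 22.3 CPM in mouse and from 103 ± 10.8 to 284 ± 63.6 CPM in spiny mouse. Sdr9c7, a dehydrogenase acting on the oxidised product, rose by 1.37 and 0.91, and Tgm1, the crosslinking enzyme of the cornified envelope, by 2.11 and 0.84. Pnpla1, which makes the acylceramide itself, rose in mouse (1.66) and was 59.3 ± 7.55 and 53.2 ± 10.0 CPM in spiny mouse. Aloxe3 was lower in mouse beside these rises. The species difference was negative and called for 4 of the 9, against 24.7% of all shared genes, among them Pnpla1 (-1.81) and Tgm1 (-1.28).

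In mouse, some exon bases of Pla2g4e, Tbxas1, Ptgis, Ptger2, Ptger4, Ptgdr, Ptgfr, Alox5ap, Ltc4s, Pnpla1 and Tgm1 are shared with another annotated gene. Among these 11 genes the shared stretch was longest, relative to the gene, in Ltc4s (268 of 1014 bases), Ptgdr (705 of 3187) and Ptger4 (1097 of 6648). It was longer in some genes given only in counts or as a species difference, such as Pla2g4b (3878 of 5831) and Ptgr2 (1896 of 5929) in mouse. The same held in both species for Ptger1 (3875 of 5459 in mouse) and Ptgdr2 (1031 of 2644 in mouse and 1129 of 4032 in spiny mouse). In spiny mouse Cyp4f39 (887 of 2570), Pla2g4b (861 of 3794), Pla2g6 (664 of 4721) and Pla2g4c (500 of 7403) also share exon bases. Fragments in such a shared stretch that fell equally to both genes were counted for neither. Without untreated mouse replicate 2, the mouse counts became 8 higher and 3 lower phospholipases, 3 higher and 4 lower synthases, 3 lower transport and breakdown genes, 4 lower leukotriene genes and 8 higher acylceramide genes. Over all fits that left out 1 library, 1 to 3 phospholipases were lower in mouse. In spiny mouse 4 to 5 phospholipases were higher and 3 to 4 lower, 1 to 2 synthases were lower, 1 to 2 transport and breakdown genes were higher, 6 to 7 leukotriene genes were higher and 0 to 1 lower, and 4 to 6 acylceramide genes were higher. The species difference was positive and called for 3 to 5 leukotriene genes in those fits, and negative and called for 3 to 4 acylceramide genes.

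**Figure D4:**
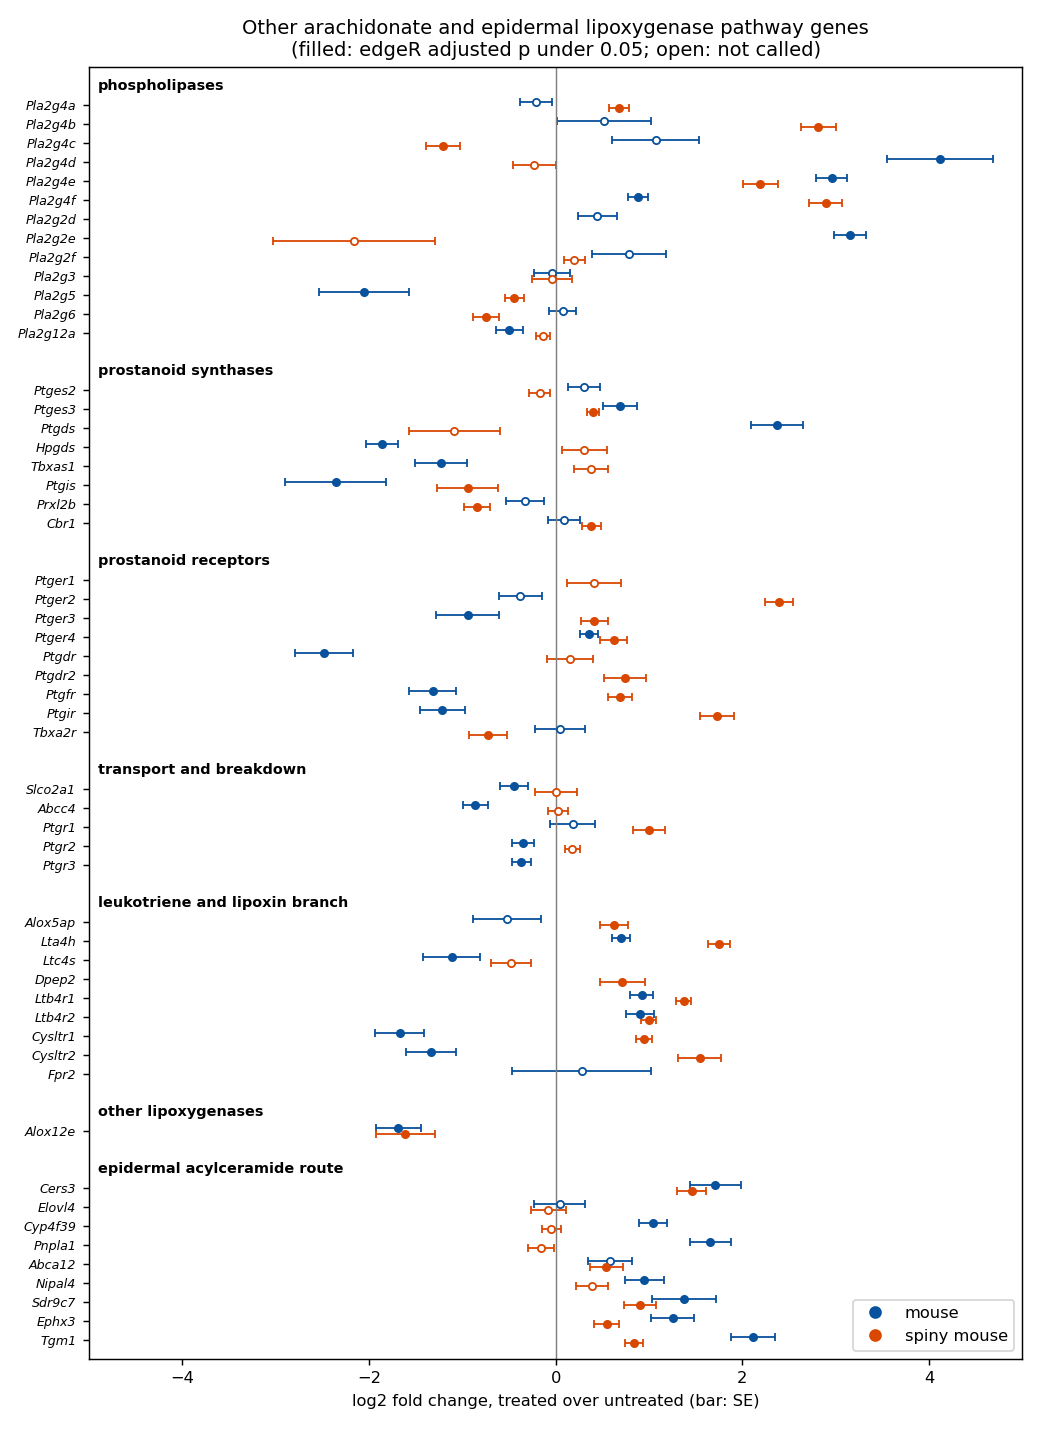
Log2 fold change with SE of the other arachidonate and epidermal lipoxygenase pathway genes, DMBA/TPA over untreated, grouped by role, for mouse (blue) and spiny mouse (orange). Filled points passed an edgeR adjusted p of 0.05. In the receptor and leukotriene groups most filled orange points lie right of 0 while filled blue points lie on both sides, and in the acylceramide group all filled points lie right of 0.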

How the data were processed

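Counts of read pairs per gene were deposited by the authors as 1 table per species. Per the file headers, they were made with featureCounts 2.0.3 with no strand option, on GRCm39 with Ensembl 108 for mouse and on AcoCah2 for spiny mouse. Fragments mapped to several places, or falling equally to several genes, were not counted. Trim Galore and HISAT2 are named in the submitters' processing notes, with versions not given in the sources used here. The deposited gene lengths, another value the authors deposited, gave CPM per kilobase. They cover all annotated exons of a gene, so ratios and orders between genes depend on the annotation. Mouse symbols came from GENCODE M39 by identifier.

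In R 4.3.3, each table was filtered with filterByExpr, scaled by TMM and tested with edgeR 4.0.16 (glmQLFit and glmQLFTest), with Benjamini-Hochberg adjustment over all genes and calls at an adjusted p under 0.05. The SE of a log2 fold change is its size over the square root of F. The interaction used 13656 symbols found once in each table and kept in both. The fits were tested on simulated data. Over 24 within-group pairs of samples, chi-square per degree of freedom was 11.35 to 165.8, so no library was counted as a repeat. Intervals and floors cover counting error only.

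Column names of untreated samples differ from the library names in the labels and were matched on species letter and replicate number, which fit 1 label each. Replicate numbers recur in each group. Samples were correlated after each gene's group mean was subtracted. Same-numbered samples gave a mean of 0.009 in mouse and -0.355 in spiny mouse, against -0.003 and 0.119 for other numbers. The numbers were not taken as pairs. Alternatives were DESeq2 1.42.0 (test, or size factors alone), upper-quartile factors, library size alone, other filters, the replicate block and each library left out. The members, the 56 further pathway genes and the 14 marker lists were chosen with earlier results of these data known. Named genes are the 10 members, genes of the pathway list, and the 3 symbols most correlated with each member among those whose average was 3 log2 CPM or more in each species (prior count 2).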

Additional observations from a re-analysis of the deposited data

Results flagged for a closer look

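Untreated mouse replicate 2 lay far from the other 3 samples of its group for 5 of the genes named. It was high for Alox8 (13.1 CPM, the others 1.25 to 2.46), Pla2g2e (5.61, the others 3.50 to 3.59) and Ptgds (5.48, the others 2.27 to 2.69). It was low for Ltc4s (1.93, the others 3.37 to 3.50) and Alox12e (149, the others 279 to 299). Treated mouse replicate 4 was high for Pla2g2e (38.5 CPM, the others 35.1 to 35.6), and untreated spiny mouse replicate 1 was low for Ptger3 (7.82 CPM, the others 11.7 to 12.0). Chance alone gives such a gap in about 1 of 20 groups.

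Among the members, the response to treatment differed between the species, as spiny mouse minus mouse on the log2 scale by the edgeR interaction, for Ptgs1 (1.64), Ptgs2 (2.97), Hpgd (1.97), Alox8 (-6.81), Alox12b (-1.18) and Aloxe3 (0.45). Among the other pathway genes it was larger in spiny mouse for Pla2g4a (0.89), Pla2g4b (2.28), Pla2g4f (2.01), Pla2g5 (1.61), Hpgds (2.17), Tbxas1 (1.60), Ptger2 (2.77), Ptger3 (1.36), Ptgdr (2.63), Ptgfr (2.01), Ptgir (2.94), Abcc4 (0.88), Ptgr1 (0.82), Ptgr2 (0.52), Alox5ap (1.15), Lta4h (1.05), Ltb4r1 (0.45), Cysltr1 (2.62) and Cysltr2 (2.88). It was smaller for Pla2g4c (-2.25), Pla2g4d (-4.36), Pla2g4e (-0.76), Pla2g2e (-5.31), Pla2g6 (-0.82), Ptgds (-3.46), Cyp4f39 (-1.09), Pnpla1 (-1.81), Ephx3 (-0.70) and Tgm1 (-1.28).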

How the results depend on the processing

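No member's fold change reversed its direction under any alternative that was run. Of the 10 member genes, 5 were called in mouse, with 5 to 7 when each library was left out in turn, and 6 in the species difference, with 4 to 6. In spiny mouse the 8 calls were the least stable count: 5 with the replicate block, and 5 to 7 when each library was left out. The calls that the block ended were those of Alox8 (-2.48, edgeR adjusted p 0.125), Alox12b (-0.52, 0.0662) and Aloxe3 (-0.31, 0.0816), and in the species difference that of Aloxe3 (0.45, 0.0965). The replicate numbers were not taken as pairs, since no untreated sample correlated best with the treated sample of its own number. Counts of all called genes stayed within 1.5 times of those reported under every alternative. The sign of the difference of Alox12e, near 0, turned with DESeq2 (-0.0433), its size factors (-0.0398), no filter (-0.0566), the replicate block (-0.000268) and 6 of the fits without 1 library (all 16 from -0.28 to 0.26), and that of Ptgr1 in mouse with upper-quartile factors (-0.00307) and library size alone (-0.0404). None of these passed the test, and the cause was not tested. Relative to TMM the median mouse log2 fold change shifted by 0.0963 under DESeq2 scaling, -0.205 under upper-quartile scaling and -0.238 under library size, and the median species difference by -0.104, 0.165 and 0.222. Depth limits the low genes, among the members Alox15 in mouse, and Alox8 in untreated mouse and treated spiny mouse.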
